A study of Homo sapiens with 16 samples.

Results

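Undifferentiated human embryonic stem cells of the line H9 (D0 control) were set against the cultures that the same line gave after 70 days of neural differentiation (D70 control), both grown with the solvent DMSO and no drug. The comparison rests on 4 of the 16 RNA-seq libraries of the series, 2 at each end. The labels call them replicates and the paper calls them biological replicates. A gene was counted as switched on when it lay under 0.5 CPM (read counts per 1000000 of the scaled library) in both D0 control libraries and at 5 CPM or more in both D70 control libraries, and as switched off in the reverse case. Of the 57736 genes in the table, 69 (0.120%) were switched on and 57 (0.0987%) were switched off.

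The study followed H9 cells through 4 stages, days 0, 12, 30 and 70, on the way to cortical neurons, and asked how raised O-GlcNAc changes that course. At each stage, 2 libraries came from control cells in DMSO and 2 from cells given Thiamet-G (TMG) at 40 µM, a drug that blocks O-GlcNAcase, the enzyme that takes O-GlcNAc sugars off proteins. Inhibitors of BMP and activin receptors drove neural induction for the first 12 days, after which the medium was exchanged for a neurogenic one. H9 is a single established line, so every group shares its genome, and the day 70 samples were whole cultures that had not been sorted.

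Pluripotent stem cells hold their state through a small circuit of transcription factors in which POU5F1 (OCT4), NANOG and SOX2 bind their own and one another's regulatory regions, together with Nodal and FGF signals, the RNA-binding protein LIN28A and the miR-302 family of microRNAs. On neural induction the circuit is shut down, PAX6-positive neuroepithelium forms, and radial glia derived from it give rise to neurons and later to glia, with HOPX marking the outer class of radial glia. The anterior neural plate and the tissues beside it are also the source of the choroid plexus, the eye cup, the lens and the neural crest, so cultures kept for weeks can hold more cell classes than cortex.

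The deposited counts summed to 15417543 and 15638409 in the D0 control libraries and to 17757289 and 12213409 in the D70 control libraries, within a range of 10334908 to 19836878 over the 16 libraries. At these depths, after scaling by the trimmed mean of M values (TMM), 0.5 CPM stood for 8.09 and 7.15 counts at D0 and for 7.78 and 6.21 counts at D70. The floor that a count of 0 allows, 3 counts in a library, lay at 0.185 and 0.210 CPM at D0 and at 0.193 and 0.241 CPM at D70. Floors and counting intervals here cover counting error only. The 10 most abundant genes took 11.4% and 23.7% of the counts at D0 and 20.8% and 19.2% at D70.

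The day 70 libraries stood further apart than the stem cell libraries. The Pearson correlation of log2(CPM + 1) across the 24249 genes tested, which are not independent of one another, was 0.981 between the D0 control libraries and 0.923 between the D70 control libraries. Genes over 4-fold apart in CPM + 1 numbered 107 at D0 and 1188 at D70, and the biological coefficient of variation fitted to each pair alone was 0.242 and 0.451. The treatment tag in the labels named the other arm for 8 of the 16 libraries, among them replicate 2 of D0 control and replicate 2 of D70 control. The title was followed for all, and the sample descriptions and the column names of the counts named the same arm as the title in each of the 16.

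Across all genes tested, edgeR called 7218 changed between the control libraries of D0 and D70 at a false discovery rate (FDR) of 5%, which was 29.8% of them. Of these, 3649 (15%) were higher at D70 and 3569 (14.7%) were lower, and the median log2 fold change of all tested genes was 0.03, while DESeq2 called 8500 (35.1%). Each library mattered to these counts. Without D0 library 1 the test called 3678 genes and without D0 library 2 it called 3925, while 4739 were called without D70 library 1 and 6183 without D70 library 2. In such fits the lone library left in its group is assumed to vary like the other groups.

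Most genes that were expressed at one end were expressed at the other. At 5 CPM or more in both libraries there were 12647 genes at D0 and 12714 at D70, and 11450 of them were the same genes. The switched-off genes were 0.451% of those expressed at D0, the switched-on genes 0.543% of those expressed at D70, and 32823 genes were near zero at both ends. A further 2682 genes under 0.5 CPM in both D0 libraries were in neither state at D70, and so were 1140 of those expressed at D0. In the plot of mean levels at the ends, the switched genes fill the upper left and lower right corners, away from the diagonal that holds most genes.

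**Figure D1:**
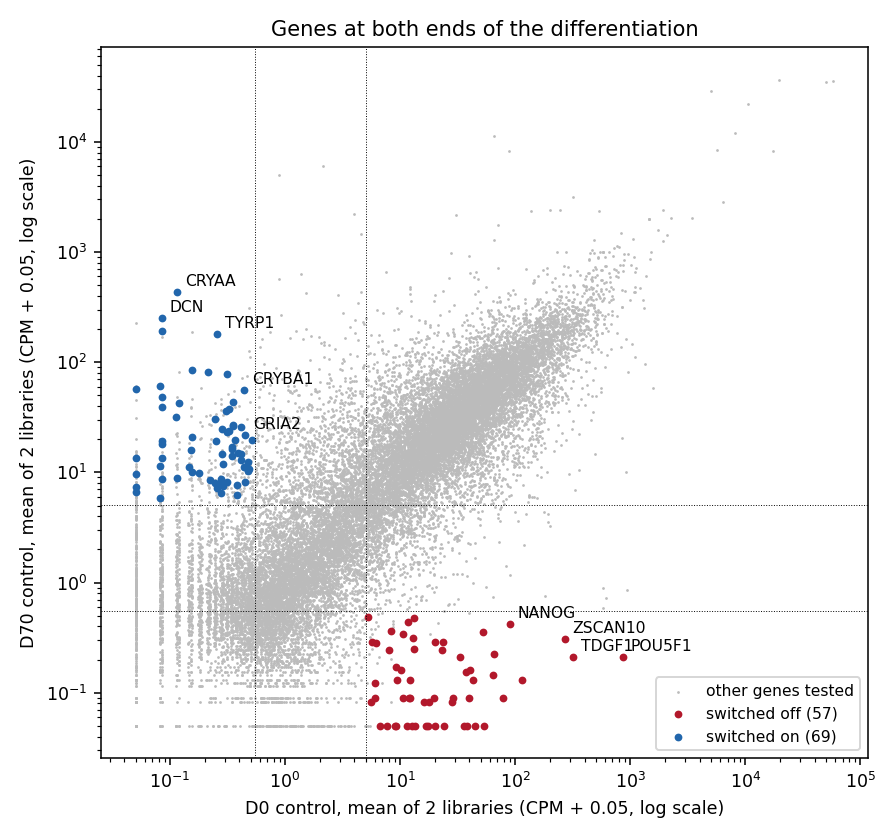
Mean CPM + 0.05 of each tested gene in the D0 control libraries (horizontal, log scale) and the D70 control libraries (vertical, log scale), with genes switched on in blue, genes switched off in red and dotted lines at the thresholds. The 69 and 57 switched genes sit in opposite corners, and POU5F1 is the switched-off gene with the highest level at D0.

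The markers of the compared samples were read first. POU5F1 (ENSG00000204531, chr6:31132114-31148508, GRCh37) had 824 and 893 CPM in the D0 control libraries and 0.321 and 0 CPM at D70, so the ends did not overlap and the second D70 library held no read of it. Over both libraries the ratio was 4794. HOPX (ENSG00000171476, chr4:57514155-57548043) had no count in either D0 control library and 3.21 and 4.75 CPM at D70, at least 39.6-fold higher against a floor of 3 counts over the D0 group. It was present in both D70 libraries yet under the 5 CPM needed to count as switched on. PAX6 (ENSG00000007372, chr11:31806327-31839509) had 3.95 and 14.6 CPM at D0 and 306 and 312 CPM at D70, a clear separation of the ends, but its D0 level kept it out of the switched-on genes.

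HOPX and PAX6 both rose at edgeR's FDR, HOPX with a log2 fold change of 8.91 (FDR 0.015) and PAX6 with 5.06 (FDR 0.034). Each was higher in both D70 libraries than in both D0 libraries. These calls depended on single libraries. For HOPX the FDR was 0.079 without D0 library 1 and 0.072 without D0 library 2, and for PAX6 it was 0.181, 0.099, 0.070 and 0.058 without D0 library 1, D0 library 2, D70 library 1 and D70 library 2. The log2 fold change stayed between 8.61 and 9.16 for HOPX and between 4.43 and 6.28 for PAX6 in these fits. HOPX had no count at D0, so its fitted values are no measured fold, and its rise is bounded only from below. Over all alternatives the FDR ran from 8.7e-05 to 0.079 for HOPX and from 0.0013 to 0.181 for PAX6. The markers thus separated the ends, with POU5F1 at or near the floor in the day 70 cultures. Which cells of those cultures held HOPX and PAX6 was not tested. In bulk RNA of this kind, fewer cells of a type and less RNA per cell cannot be told apart, here and in every result that follows.

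Transcription factors of the stem cell circuit were among the 57 genes switched off. NANOG, the homeodomain partner of POU5F1, had 94.7 and 86.0 CPM at D0 and 0.257 and 0.483 CPM at D70, a ratio of 254, and its higher D70 library sat just inside the threshold. ZSCAN10, a zinc finger factor of stem cells, had 300.2 and 238 CPM at D0 and 0.193 and 0.322 CPM at D70. PRDM14, a repressor that shields pluripotency, had 55.9 and 33.0 CPM at D0 and no count at D70, at least 421-fold lower. PRDM14 differed the most of these factors between the D0 libraries.

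UTF1, a chromatin-bound protein of undifferentiated cells, had 30.8 and 43.5 CPM at D0 against 0.129 and 0.0805 CPM at D70, 3 counts in all, for a ratio of 343 with a 95% counting interval of 117 to 1664. VRTN, a vertebra-number gene expressed in stem cells, had 114 CPM in both D0 libraries and 0 and 0.161 CPM at D70 (2 counts, ratio 1593, counting interval 441 to 13161). FOXD3, a forkhead factor of stem cells and neural crest, had 24.8 and 61.5 CPM at D0 and 0 and 0.161 CPM at D70. Its D0 libraries differed more than those of the factors above, and it shares bases with FOXD3-AS1, also switched off, so reads of the overlap cannot be told apart where strand is not used. FOXD3 was named after its values were seen, as were other genes outside the fixed rule.

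Members of the Nodal pathway and telomerase were also among the genes switched off. TDGF1, the Nodal co-receptor, had 320.0 and 315 CPM at D0 and 0.321 and 0 CPM at D70, a ratio of 1777. FOXH1, which takes the Nodal signal to DNA with SMAD proteins, had 56.9 and 48.6 CPM at D0 and 0.129 and 0.483 CPM at D70. TERT, the catalytic subunit of telomerase, had 43.6 and 37.6 CPM at D0 and 0.0643 and 0.161 CPM at D70, a ratio of 381 with a counting interval of 130.0 to 1848. For all 3 the D0 libraries were close to each other. TRIML2, a TRIM-like protein, completed the 12 most abundant named genes with POU5F1 and LINC00678, a long non-coding RNA, and with the miR-302 host.

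Reads of some of these genes could not be placed with certainty. NANOGP8, a retrocopy of NANOG on another chromosome, had 22 and 24.3 CPM at D0, and TDGF1P3, a retrocopy of TDGF1, had 30.3 and 26.4 CPM. Both were switched off with their parents, as was NANOGP1 at 5.13 and 5.95 CPM. Since the copies resemble their parent genes closely, how reads divide among them is uncertain, and POU5F1 has retrocopies too.

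MIR302CHG, the host transcript of the miR-302 cluster, whose microRNAs hold stem cells in cycle, had 72.9 and 84.3 CPM at D0 and 0 and 0.0805 CPM at D70, a single count (ratio 2188, counting interval 392 to 86476). The microRNAs themselves were not measured by these libraries, so the switch was read on the host alone. The mature strands it encodes are shown because the cluster is the best-known small RNA output of the circuit. In RefSeq (GRCh38.p14) they lie on the minus strand at chr4:112648186-112648208, chr4:112648489-112648511, chr4:112648366-112648388, chr4:112648006-112648028 and chr4:112647877-112647898 in the order given. Capitals mark the seed, bases 2 to 8, which 4 of the 5 share.
hsa-miR-302a-3p: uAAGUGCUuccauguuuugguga
hsa-miR-302b-3p: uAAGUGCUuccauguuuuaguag
hsa-miR-302c-3p: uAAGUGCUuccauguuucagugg
hsa-miR-302d-3p: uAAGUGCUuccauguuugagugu
hsa-miR-367-3p: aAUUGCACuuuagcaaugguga

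The octamer ATGCAAAT is the letter string that POU factors such as POU5F1 recognise, and its core ATGCAAA was searched on both strands in RefSeq promoter windows of 250 bases before to 50 after each start. The core lies inside the octamer, so each octamer is also a core match. The table of windows used here held 26 of the 57 switched-off genes, with 31 windows, and the promoters of the others, POU5F1, TDGF1 and FOXH1 among them, were not analysed. The core was in 4 of the 31 windows (12.9%), those of HMX2, MIR302CHG, NANOG and VENTX, against 4.46% of all 35116 windows and 3.48% of the windows of genes tested, and the full octamer was in 2 (6.45%), those of HMX2 and MIR302CHG, against 1.77% and 1.48%. Windows of NANOG and MIR302CHG are printed because both genes belong to the circuit and both hold the core. The NANOG sequence is the 250 bases before the start at chr12:7789152-7789401, plus strand, with the core in capitals on the other strand, 120 to 114 bases before the start. The MIR302CHG sequence is from chr4:112650052-112650301, minus strand, with the core in capitals 202 to 196 bases before the start, and a second start of this gene had no match. A match describes letters and does not show binding.
NANOG: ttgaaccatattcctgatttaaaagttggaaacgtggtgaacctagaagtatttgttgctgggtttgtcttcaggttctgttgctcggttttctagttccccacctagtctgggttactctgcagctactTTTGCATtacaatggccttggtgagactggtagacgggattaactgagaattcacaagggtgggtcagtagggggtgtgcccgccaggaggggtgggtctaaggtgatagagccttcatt
MIR302CHG: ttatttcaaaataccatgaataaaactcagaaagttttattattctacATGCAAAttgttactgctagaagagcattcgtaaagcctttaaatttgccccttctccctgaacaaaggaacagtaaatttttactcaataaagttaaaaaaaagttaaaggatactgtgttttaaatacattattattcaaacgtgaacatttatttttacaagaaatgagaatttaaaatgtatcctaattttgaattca

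Whole lists of stem cell genes placed the switched-off genes among their relatives. Of 15 pluripotency factors tested, 12 were lower at D70 by edgeR, where 14.7% of all tested genes were, and 0 were higher, where 15% were, with a median log2 fold change of -7.93, or -6.43 with genes of no count at D70 set at their bound, and 6 of them were switched off. In the list of RNA and chromatin regulators of stem cells, 11 of 11 tested were lower with a median of -5.74, and TERT alone was switched off. Of 13 Nodal and FGF genes tested, 9 were lower and 1 was higher, the signal transducer SMAD3, with a median of -2.65, and TDGF1 and FOXH1 were switched off. Leaving out any of the 4 libraries gave 11 to 12, 11 and 7 to 8 genes lower in these lists. SMAD2 joined SMAD3 among the higher genes without D70 library 1, giving 2.

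Large falls were not always switches. LIN28A, which blocks let-7 microRNAs, had 984 and 903 CPM at D0 and 0.964 and 0.644 CPM at D70 (log2 fold change -10.17, FDR 4.7e-05). DPPA4, a chromatin protein of stem cells, had 658 and 566 CPM at D0 and 1.03 and 0.322 CPM at D70 (-9.76, FDR 1.9e-05). Both kept a D70 library above 0.5 CPM, though they fell further than several of the genes switched off. DNMT3B, a DNA methyltransferase with a stem cell isoform, had 1034 and 787 CPM at D0 and 6.04 and 14.0 CPM at D70 (-6.51, FDR 2.7e-05), and SALL4, a zinc finger factor, had 184 and 203 CPM at D0 and 2.38 and 5.96 CPM at D70 (-5.55, FDR 1.8e-04). In each case both D70 libraries were far under both D0 libraries, and the calls held without any single library.

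SOX2, shared by stem cells and neural progenitors, behaved unlike its partners. It had 189.9 and 261 CPM at D0 and 112 and 50.7 CPM at D70, lower in both but still well expressed (log2 fold change -1.47, edgeR FDR 0.032). The call was lost without D0 library 1 (FDR 0.062), D0 library 2 (0.155) or D70 library 2 (0.152), and over all alternatives the FDR ran from 0.0072 to 0.155. OTX2, a factor of both epiblast and anterior neural plate, was the most abundant member of the pluripotency list at D70, with 184 and 122 CPM against 23.8 and 40.1 CPM at D0.

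Epithelial junction genes and cell cycle genes gave unlike counts. Of 21 epithelial junction genes tested, 4 were lower and 1 was higher, so that 23.8% were called against 29.8% of all tested genes, with a median of -1.56. Leaving out D0 library 1 gave 3 lower and leaving out D70 library 2 gave 6, and the higher gene was lost (0) without any of the 4 libraries. Over all alternatives the lower genes ran from 3 to 14, the most with arms read from the treatment tag. CDH1, the cadherin of stem cell colonies, had 275 and 163 CPM at D0 and 2.44 and 79.1 CPM at D70, both under the D0 libraries but with the D70 libraries far apart (-2.43, FDR 0.227). Without D70 library 2 it was called at -6.47 (FDR 0.038), within a range of FDR over all alternatives from 0.0030 to 0.504. All 25 cell cycle genes were lower, with a median of -2.92, and 22 to 24 stayed so when a library was left out. MKI67, the proliferation antigen, had 626 and 495 CPM at D0 and 67.9 and 40.3 CPM at D70 (-3.37, FDR 0.0012). MCM5, of the replicative helicase, had 236 and 238 CPM at D0 and 19.3 and 34.4 CPM at D70 (-3.14, FDR 3.0e-04).

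Most of the switching off was early. Of the 57 genes, 29 were under 0.5 CPM in both control libraries at D12 and at every later stage, 11 more from D30, and the other 17 had no such unbroken run before D70. Of the 17, MIR302CHG (0.295 and 0.438 CPM) and C16orf54 (0.491 and 0.274 CPM) were also under 0.5 CPM in both libraries at D12 but not at D30. Summed over the switched-off genes, the level went from 2828 and 2748 CPM at D0 to 66.5 and 77.0 CPM at D12, 21.1 and 17.8 CPM at D30 and 6.04 and 7.24 CPM at D70. POU5F1 itself was at 0.541 and 0.766 CPM by D12. A few genes lagged. FOXD3 was still at 9.83 and 17.7 CPM at D12, and QTRT1P1, a pseudogene, had 9.73 and 12.4 CPM at D12 against 9.52 and 5.67 CPM at D0. NPSR1-AS1, an antisense transcript, had 7.91 and 7.88 CPM at D12 against 5.07 and 7.13 CPM at D0. LIN28A, not a switched gene, was also slow, with 419 and 497 CPM at D12 and 20.6 and 12.2 CPM at D30.

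Switching on, measured by reaching 5 CPM, came late, but this bar is not the 0.5 CPM used for switching off. Still under 0.5 CPM in the control libraries were 26 and 20 of the switched-on genes at D12 and 8 and 6 at D30. Of the 69 genes, 45 first held 5 CPM in both control libraries at D70, 19 did so from D30 and 5 from D12. The early 5 were SAMD5, NPR3, SLC30A4, ZFHX4-AS1 and the unnamed ENSG00000205236. The median level of the switched-on genes was 0.185 and 0.210 CPM at D0, 1.18 and 1.04 CPM at D12, 4.14 and 4.22 CPM at D30 and 11.8 and 12.6 CPM at D70. With TMG the switched-on genes at 5 CPM or more numbered 18 and 9 at D12 and 36 and 42 at D30, and the switched-off genes near zero 37 and 38 at D12 and 31 and 41 at D30. The plot of counts by day sets the fall under 0.5 CPM beside the rise to 5 CPM, and the unequal bars limit a comparison of their speed.

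**Figure D2:**
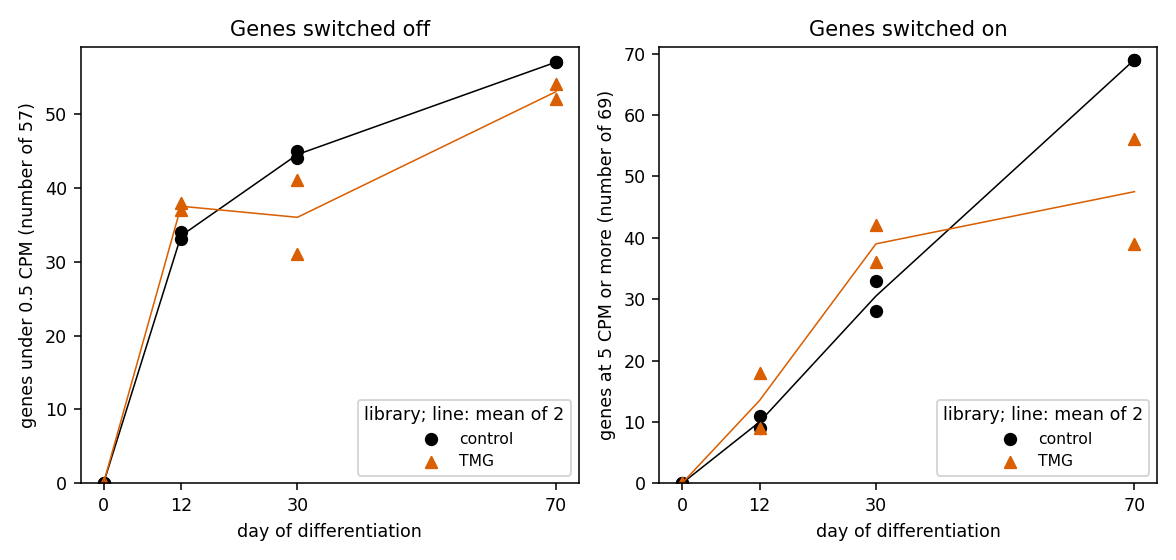
Number of the 57 switched-off genes under 0.5 CPM (left) and of the 69 switched-on genes at 5 CPM or more (right) by day of differentiation, with a point for each library and a line through the mean of each arm. At D12, 33 and 34 switched-off genes were already near zero in the control libraries, while 11 and 9 switched-on genes were at 5 CPM or more.

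Lens and pigment genes were at the top of the 69 genes switched on. The most abundant in its lower D70 library was CRYAA, the alpha-crystallin chaperone of the lens (ENSG00000160202, chr21:44589118-44592915, GRCh37), with 0.0618 and 0.0699 CPM at D0, a single count in each library, and 674 and 195 CPM at D70. The ratio was 7027 with a counting interval of 1945 to 58033. CRYBA1, a beta-crystallin, had 0.433 and 0.350 CPM at D0 and 57.7 and 54.5 CPM at D70, a ratio of 143. CRYBB2 had 14.4 and 21.4 CPM at D70, CRYBB3 had 11.7 and 5.79 CPM, and LIM2, a membrane protein of lens fibres, had 14.9 and 7.73 CPM. CRYBA1 was the most even of these lens genes between the D70 libraries and CRYAA the least.

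TYRP1, an enzyme of melanin synthesis, had 0.0618 and 0.350 CPM at D0 and 38.1 and 323 CPM at D70, a ratio of 837, with the second D70 library much the higher. TRPM1, a channel of melanocytes and retina, had 0 and 0.210 CPM at D0 and 7.01 and 163 CPM at D70 (ratio 776, counting interval 265 to 3764), with the same library on top. HSF4, a heat shock factor of the lens, had 7.39 and 45.2 CPM at D70 against 0.185 and 0.420 CPM at D0. For these genes the size of the rise differed severalfold between the day 70 libraries.

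Promoter windows of CRYBA1 and TYRP1 are printed as examples of a lens gene and a pigment gene that rose from near zero. The table of RefSeq windows used here (GRCh38.p14) held 42 of the 69 switched-on genes, with 54 windows, and the promoters of the others were not analysed here. The string TATAAA was in 4 of these windows (7.41%), in 7.64% of the windows of genes tested and in 11.5% of all windows. CATGTG, the core of the M-box through which MITF-type factors act, was in 8 (14.8%) against 8.27% of the windows of genes tested, 11.1% of all windows and 0 of the 31 windows of switched-off genes. CCAAT was in 19 (35.2%), against 34.1% of the windows of genes tested, 34.6% of all windows and 9 (29.0%) of the switched-off windows, and TATAAA was in 5 (16.1%) of the latter. The octamer core was in 3 switched-on windows (5.56%), and the full octamer in 1 (1.85%), that of CELF6. Each string was searched on both strands. The CRYBA1 sequence is chr17:29246609-29246858, plus strand, with TATAAA in capitals 30 to 25 bases before the start. The TYRP1 sequence is chr9:12693135-12693384, plus strand, with CATGTG in capitals 144 to 139 bases before the start and its complement CACATG 11 to 6 bases before it. These matches are a description of the letters alone.
CRYBA1: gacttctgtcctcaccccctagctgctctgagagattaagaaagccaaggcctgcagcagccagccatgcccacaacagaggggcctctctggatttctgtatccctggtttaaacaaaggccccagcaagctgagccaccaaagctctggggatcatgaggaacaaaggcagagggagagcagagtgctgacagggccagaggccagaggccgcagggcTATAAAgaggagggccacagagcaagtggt
TYRP1: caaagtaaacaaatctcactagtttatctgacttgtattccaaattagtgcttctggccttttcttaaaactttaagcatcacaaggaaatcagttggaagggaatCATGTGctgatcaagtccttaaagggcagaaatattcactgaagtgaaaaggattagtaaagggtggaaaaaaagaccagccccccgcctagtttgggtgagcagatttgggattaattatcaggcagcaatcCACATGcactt

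Several of the switched-on genes act in signalling and metabolism. SAMD5, a SAM-domain protein, had 0.185 and 0.420 CPM at D0 and 51.4 and 36.5 CPM at D70, a ratio of 152, and was at 33.0 and 60.2 CPM by D12. NPR3, the clearance receptor for natriuretic peptides, had 0.124 and 0 CPM at D0 and 20.6 and 43.2 CPM at D70 (ratio 467, counting interval 129 to 3865). Both were among the early 5. SAMD5 overlapped between D12 and D70, while NPR3, at 11.8 and 20.1 CPM at D12, was higher in both D70 libraries than in both of D12. SLC30A4, a zinc transporter, had 20.2 and 27.3 CPM at D70, with ratio 88.9. SOSTDC1, an antagonist of BMP and WNT ligands, had 28.4 and 25.1 CPM, and SFRP4, a secreted WNT inhibitor, had 21.3 and 16.8 CPM. All 3 had like levels in the D70 libraries, unlike the pigment genes.

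PGM5, a phosphoglucomutase relative found at cell junctions, had 0 and 0.140 CPM at D0 and 49.4 and 36.5 CPM at D70 (ratio 665, counting interval 184 to 5498). STING1, the sensor adaptor of innate immunity, had 24.3 and 22.1 CPM at D70, a ratio of 88.9, and GALNT5, an enzyme that starts mucin-type O-glycans, had 51.2 and 21.6 CPM, a ratio of 145. IFI44L and GBP1, both interferon-induced, were also switched on, at 14.1 and 12.9 CPM and at 16.4 and 5.87 CPM. None of these is a marker of neurons. In the colour plot of the most abundant switched genes, the stem cell genes are bright in the 4 libraries of D0 and far dimmer from D12, with POU5F1 at 9.13 and 5.49 CPM in the D30 TMG libraries. CRYAA, CRYBA1 and TYRP1 are brightest at D70, though not in D70 TMG library 2, and SAMD5, NPR3 and SLC30A4 are up from D12.

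**Figure D3:**
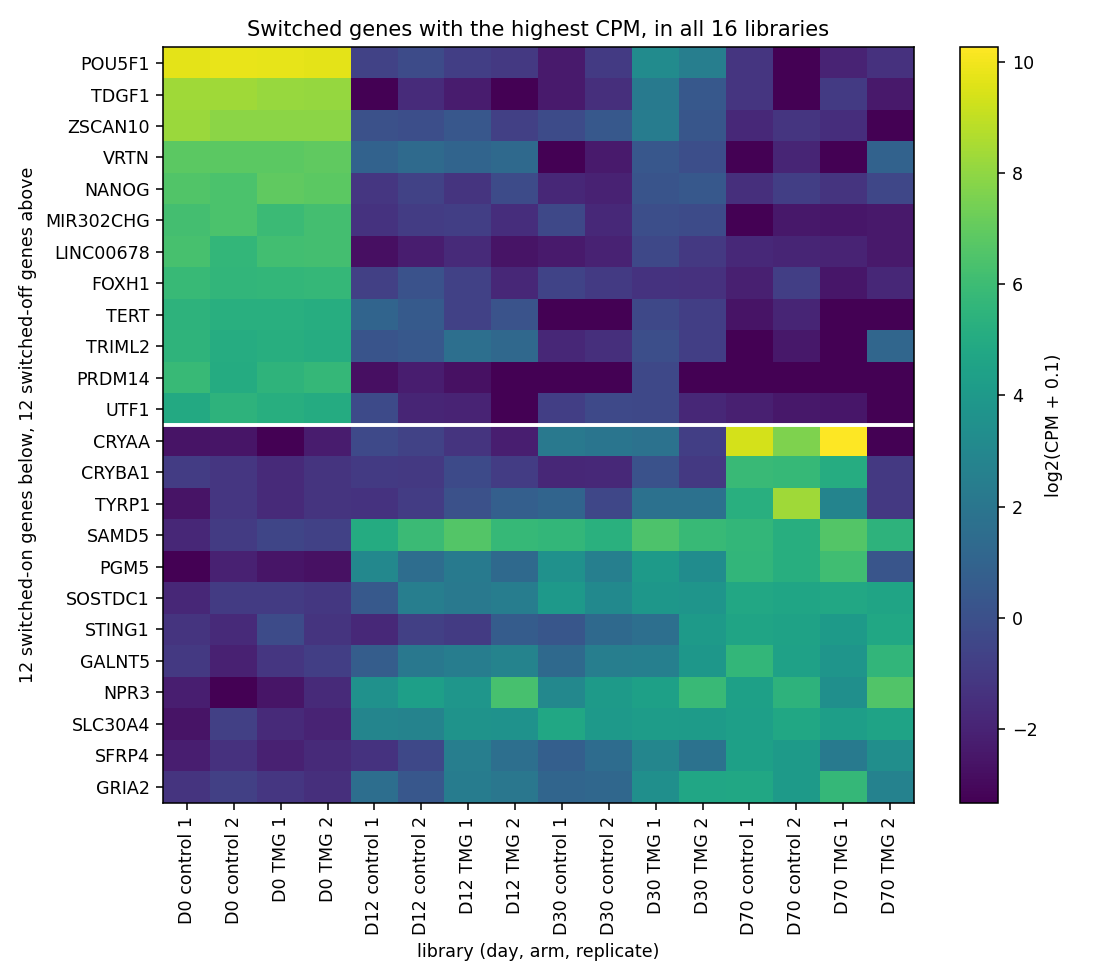
Level, as log2(CPM + 0.1), of the 12 most abundant named genes switched off (upper) and switched on (lower) in each of the 16 libraries, by day, arm and replicate. Abundance was ranked by the lower control library of D0 (upper) or D70 (lower). DCN and KRT17, not shown, had higher means in the D70 control libraries (253 and 192 CPM) than all switched-on genes shown but CRYAA. POU5F1 goes from 824 and 893 CPM in the D0 control libraries to 0.321 and 0 at D70, and CRYAA from 0.0618 and 0.0699 CPM to 674 and 195.

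Some of the switched-on genes are known from neurons or neural progenitors. GRIA2, the AMPA receptor subunit that sets calcium permeability, had 0.309 and 0.490 CPM at D0 and 27.0 and 16.7 CPM at D70, a ratio of 57.0. It completed the 12 most abundant named genes, ranked by the lower D70 control library and not by the mean. NR2E1 (TLX), a nuclear receptor of neural stem cells, had 0.185 and 0.280 CPM at D0 and 14.9 and 14.4 CPM at D70. CNTN5, a neuronal contactin, had no count at D0 and 6.75 and 20 CPM at D70, at least 129-fold higher. CAMK2B, a synaptic kinase, had 17.4 and 8.29 CPM at D70, and BHLHE22, a factor of postmitotic neurons, 5.01 and 12.8 CPM. All 5 were well under the level of CRYAA in both D70 libraries.

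Lists of neural genes were set beside the 15% of all tested genes called higher and the 14.7% called lower. Of 19 forebrain and progenitor factors tested, 7 were higher by edgeR and 0 were lower, with a median log2 fold change of 2.09 and NR2E1 alone switched on. Proneural factors gave 2 higher of 15 (median 2.05), cortical subtype factors 2 of 14 (0.68), neuronal cytoskeleton and RNA-binding genes 5 higher and 4 lower of 26 (0.78), and synaptic vesicle genes 5 higher and 3 lower of 28 (0.87). For synaptic adhesion the counts were 9 higher and 1 lower of 25 (0.84), for transmitter receptors 5 and 2 of 30 (1.34, GRIA2 switched on), and for voltage-gated channels 9 and 4 of 26 (1.04). Radial glia and astroglia gave 8 higher and 2 lower of 22 (1.39). Several of these counts turned on a library: the higher genes of the forebrain list fell to 2 without D0 library 1, 4 without D0 library 2 and 3 without D70 library 1, and those of radial glia to 3 and 4 without the D0 libraries. Without D0 library 1 and then D0 library 2 the higher counts were 3 and 2 for synaptic adhesion, 2 and 2 for receptors, 4 and 3 for channels, 3 and 3 for vesicle genes, 1 and 0 for cytoskeletal genes, 0 and 1 for cortical factors and 0 and 0 for proneural factors.

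Leaving out a D70 library gave cortical factors 3 higher genes (without D70 library 1), cytoskeletal genes 2 and 3 (without D70 libraries 1 and 2), and channels 6 (without D70 library 2). Lower counts in the cytoskeletal list went from 4 to 1, 1, 0 and 2 as each library was left out in turn, and those of receptors reached 0 without D0 library 1 and 1 without D0 library 2 or D70 library 2. The lower radial glial genes went from 2 to 1 without either D70 library, and the lower synaptic adhesion gene became 2 without D70 library 1. Other alternatives gave more higher genes, up to 10 forebrain factors, 6 proneural factors, 6 cortical factors, 11 cytoskeletal genes, 9 vesicle genes, 15 adhesion genes, 15 receptors, 11 channels and 11 glial genes, the most with arms read from the treatment tag or, for proneural factors, by DESeq2.

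Some neuronal genes stayed called without any single library. SNAP25, a SNARE of the presynaptic membrane, had 0.618 and 0.699 CPM at D0 and 9.71 and 13.4 CPM at D70 (log2 fold change 4.12, FDR 1.5e-04). LSAMP, a limbic adhesion protein, had 11 and 14.0 CPM at D0 and 172 and 154 CPM at D70 (3.71, FDR 1.7e-05). CNTNAP4, a neurexin relative, had 0.124 and 0 CPM at D0 and 2.89 and 11.8 CPM at D70 (6.65, FDR 0.0024). All were higher in both D70 libraries than in both D0 libraries, and the estimate for CNTNAP4 lay between 5.31 without D70 library 2 and 9.79 without D0 library 1. Sums of the neuronal lists did not all rise. Synaptic vesicle genes summed to 755 and 592 CPM at D0 and 598 and 668 CPM at D70. Receptors went from 524 and 322 CPM to 365 and 272 CPM, and channels from 459 and 468 CPM to 420 and 463 CPM. Sums of synaptic adhesion genes (758 and 756, then 1381 and 1107 CPM) were higher at D70. So were those of cytoskeletal genes and of proneural, cortical and forebrain factors.

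DCX, a microtubule protein of migrating neurons, had 24.7 and 34.3 CPM at D0 and 513 and 152 CPM at D70 (3.50, FDR 0.037). The call was lost without D0 library 1 (3.30, FDR 0.180), D0 library 2 (3.75, FDR 0.141) or D70 library 1 (2.36, FDR 0.180), within a range over all alternatives of 0.0011 to 0.180. STMN2, a growth cone protein, had 6.06 and 8.46 CPM at D0 and 46.0 and 44.2 CPM at D70, higher in both yet short of edgeR's threshold (2.64, FDR 0.093). Over all alternatives its FDR ran from 0.0013 to 0.299. VIM, the intermediate filament of radial glia, had 166 and 234 CPM at D0 and 3027 and 1807 CPM at D70 (3.59, FDR 3.7e-04), and TNC, an extracellular protein of outer radial glia, had 9.70 and 14.8 CPM at D0 and 279 and 554 CPM at D70 (5.09, FDR 5.4e-04). Both stood apart at the ends and kept their call without any library. GFAP, the astrocyte filament, stayed low, at 2.10 and 2.17 CPM at D0 and 3.15 and 4.02 CPM at D70. The radial glia and astroglia list summed to 2464 and 1740 CPM at D0, with PTPRZ1 the most abundant (1168 and 654 CPM). At D70 it summed to 4646 and 3531 CPM, of which VIM made up 3027 and 1807 CPM. Which cells of the cultures gave the VIM and TNC reads was not tested.

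Marker lists of other cell types were read in full, beside the 15% of all tested genes called higher and the 14.7% called lower. Of 14 roof plate and choroid plexus genes tested, 13 were higher, with a median of 3.89. Their sum was 43.2 and 77.4 CPM at D0 and 10843 and 508 CPM at D70, and the most abundant, TTR, the thyroid hormone carrier, had 1.67 and 0 CPM at D0 and 9812 and 198 CPM at D70. All 14 were higher in D70 library 1 than in D70 library 2, and none was at 0 there. TTR was called (12.50, FDR 0.021), but not without D0 library 1 (FDR 0.088), D0 library 2 (0.124) or D70 library 1 (7.83, FDR 0.077), with a range over all alternatives from 8.8e-07 to 0.124. AQP1, a water channel, had 0.680 and 0.490 CPM at D0 and 185 and 138 CPM at D70 (8.08, FDR 5.7e-05) and held without any library. The list's higher genes numbered 3 without D0 library 1, 7 without D0 library 2 and 3 without D70 library 1.

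The second D70 library led in mesenchyme and eye. Of 18 neural crest and mesenchyme genes, 8 were higher and 1 was lower (50.0% called, against 29.8% of all tested genes), with a median of 4.11 and DCN switched on. Their sum was 202 and 314 CPM at D0 and 7901 and 46095 CPM at D70, with 15 of the 18 higher in D70 library 2, and only TFAP2B was at 0 in D70 library 1. COL1A1, a fibrillar collagen, had 57.3 and 72.7 CPM at D0 and 2403 and 20367 CPM at D70 (7.45, FDR 0.0039), and 5.22 without D70 library 2. DCN, a collagen-binding proteoglycan, had 0 and 0.0699 CPM at D0 and 14.3 and 492 CPM at D70, a ratio of 6905 with a counting interval of 1239 to 272789. PDGFRB, a receptor of pericytes and mesenchyme, was even, with 14.4 and 14.7 CPM at D0 and 259 and 225 CPM at D70 (4.06, FDR 3.6e-06). The list's higher genes numbered 5 without D0 library 1 and 5 without D70 library 2.

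Of 11 eye field and pigment epithelium genes tested, 6 were higher (54.5%), with a median of 5.70. Their sum was 100.8 and 106 CPM at D0 and 379 and 2411 CPM at D70, with PMEL the most abundant in D70 library 1 (107 CPM) and DCT in D70 library 2 (1077 CPM), and none was at 0 at D70. The count was 2 without either D0 library, 9 without D70 library 1 and 4 without D70 library 2, where 1 gene was lower. The part of choroid plexus, mesenchymal and eye cells in the switched-on genes was not tested.

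The remaining lists were read against the 29.8% of all tested genes called in either direction. Oligodendrocyte genes gave 1 higher and 1 lower of 7 (median -0.09), with OLIG2 and MOG at 0 in both D70 libraries. Their sum was 329 and 360 CPM there, with PDGFRA the most abundant (134 and 170 CPM). The lower call did not hold without either D0 library or D70 library 1. Midbrain, hindbrain and spinal cord genes gave 3 higher and 3 lower of 14 (3.23), with a sum of 23.0 and 35.5 CPM, HOXB3 (7.91 and 7.97 CPM, switched on) the most abundant, GBX2 switched off, and HOXB1 at 0 in both. Their higher count was 0 without either D0 library or D70 library 1 and 1 without D70 library 2, and their lower count 2 without D0 library 2. Muscle genes gave 1 higher and 2 lower of 11 (1.74), with a sum of 54.8 and 122 CPM, RYR1 the most abundant (17.7 and 54.9 CPM) and MYF5 at 0 in all 4 libraries. Leaving out a library gave 0 to 2 higher (0 without D0 library 2, 2 without D70 library 1) and 0 to 1 lower (0 without D0 library 2, 1 without any other).

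Endothelial and blood genes gave 2 higher and 0 lower of 11 (0.90), with a sum of 118 and 85.8 CPM, CLDN5 (79.9 CPM) and KDR (61.2 CPM) the most abundant in D70 libraries 1 and 2, and HBG1 at 0 in both. PTPRC (CD45), the leukocyte phosphatase, had no count at D0 and 22.4 and 1.37 CPM at D70. The higher count was 1 without D0 library 1, 0 without D0 library 2, 1 without D70 library 1 and 3 without D70 library 2, where 3 were lower. Endoderm and liver genes gave 3 higher of 6 (3.63), and their sum of 9830.0 and 289 CPM at D70 was mostly TTR (9812 and 198 CPM), which the choroid plexus list also holds. SOX17, FOXA2, APOA2 and CDX2 were at 0 in D70 library 1, and the higher count was 0 and 1 without D0 libraries 1 and 2 and 2 without D70 library 2, where 1 was lower. Genes that every cell uses gave 1 higher and 4 lower of 16 (-0.29), with sums of 13811 and 14005 CPM at D0 and 16423 and 13619 CPM at D70. Their higher count was 2 without D0 library 1 and their lower count 1 without it and 2 without each other library.

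Lists of lens, stratified epithelium and motile cilia genes were written after these values were seen and serve as description. Of 19 lens genes tested, 14 were higher, against 15% of all tested genes (median 6.42, or 6.28 with bounds) and 6 were switched on, with sums of 10.9 and 17.8 CPM at D0 and 1219 and 634 CPM at D70, CRYAA the most abundant in both and CRYGD at 0 in D70 library 1. Their higher count was 3 without either D0 library. All 19 motile cilia genes were higher in D70 library 1 than in D70 library 2, with sums of 2524 and 108 CPM, DNAH9 (549 CPM) and HYDIN (31.1 CPM) at the top, none at 0 and SPAG6 switched on. They gave 10 higher (5.33), 18 without D70 library 2 and 0 without any of the others. All 19 stratified epithelium genes were higher in D70 library 2, with sums of 37 and 2266 CPM, DSC3 (14.1 CPM) and KRT5 (378 CPM) at the top, and 7 at 0 in D70 library 1, KRT1 among them. They gave 1 higher (9.85, or 6.67 with bounds), KRT17, 6 without D70 library 1, 0 without either D0 library and 13 by DESeq2. Over all alternatives the higher lens genes ran from 3 to 16 and the higher cilia genes from 0 to 19. The part of these cells in the results was not tested. The plot of summed lists shows which D70 control library each tissue's markers favoured, choroid plexus and cilia in the first, eye, mesenchyme and stratified epithelium in the second. The sums of forebrain factors (1615 and 811 CPM) and of lens genes were also higher in the first, by less. In the D70 TMG pair, choroid plexus (3573 and 251 CPM) and cilia (1233 and 23.0 CPM) were again higher in the first library. Mesenchyme (4293 and 60696 CPM) and stratified epithelium (84.3 and 15399 CPM) were again higher in the second. Lens genes (1944 and 53.8 CPM) and forebrain factors (1626 and 181 CPM) were higher in the first, as in control cells. The eye list alone of these ran the other way, at 323 and 19.9 CPM.

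**Figure D4:**
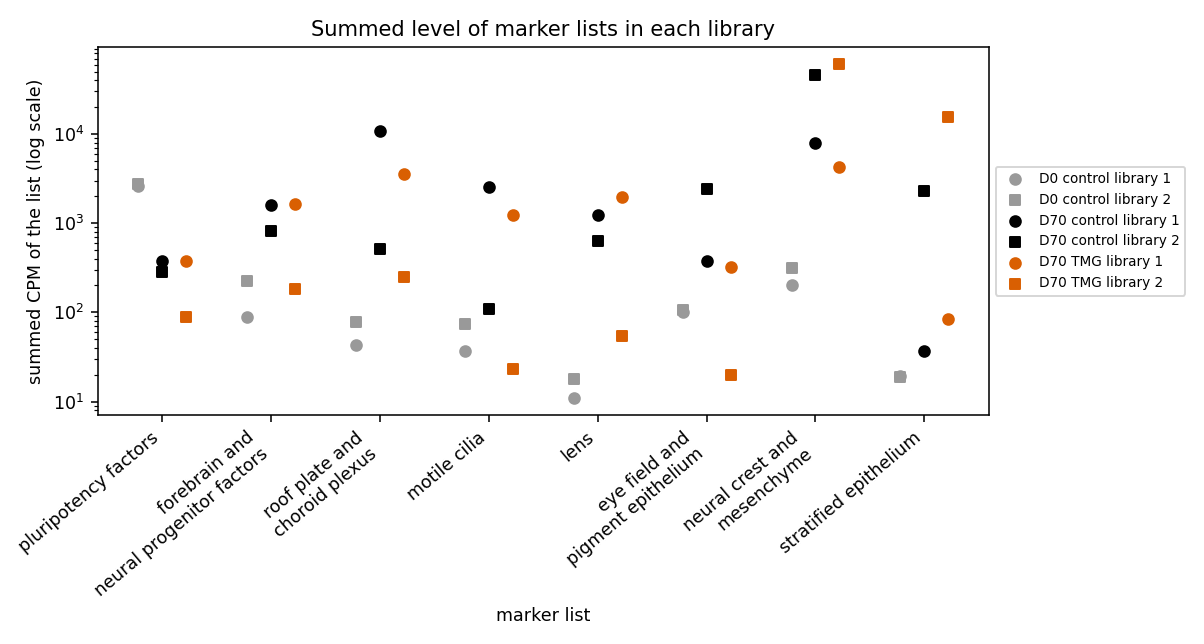
Summed CPM (log scale) of marker lists in each D0 control, D70 control and D70 TMG library, with circles for library 1 and squares for library 2. Stratified epithelium spans 37 to 2266 CPM and motile cilia 108 to 2524 CPM between the D70 control libraries, against 811 to 1615 CPM for forebrain factors.

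Genes expressed in a single day 70 library were counted apart from the switched genes. In D70 library 1, 31 genes were at 5 CPM or more while under 0.5 CPM in the other D70 library and in both D0 libraries, led by CDHR4, SOST, MORN5, AKAP14 and SNORA35. In D70 library 2 there were 79, with KRT1, KRT4, KRT13 and SERPINB2 among the most abundant. KRT1, a keratin of differentiated epidermis, had 338 CPM in D70 library 2 and 0 in D70 library 1. The same count at D0 was 1 gene in each library. Of the 69 switched-on genes, 16 were over 4-fold apart between the D70 libraries, 8 in each direction, and the median fold between them was 2.02. For the switched-off genes the median fold between the D0 libraries was 1.33 and 0 were over 4-fold apart. The plot of the paired libraries shows DCN, KRT17, TYRP1 and TRPM1 far on the side of D70 control library 2 and SPAG6 on the side of library 1, and a wider scatter with TMG.

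**Figure D5:**
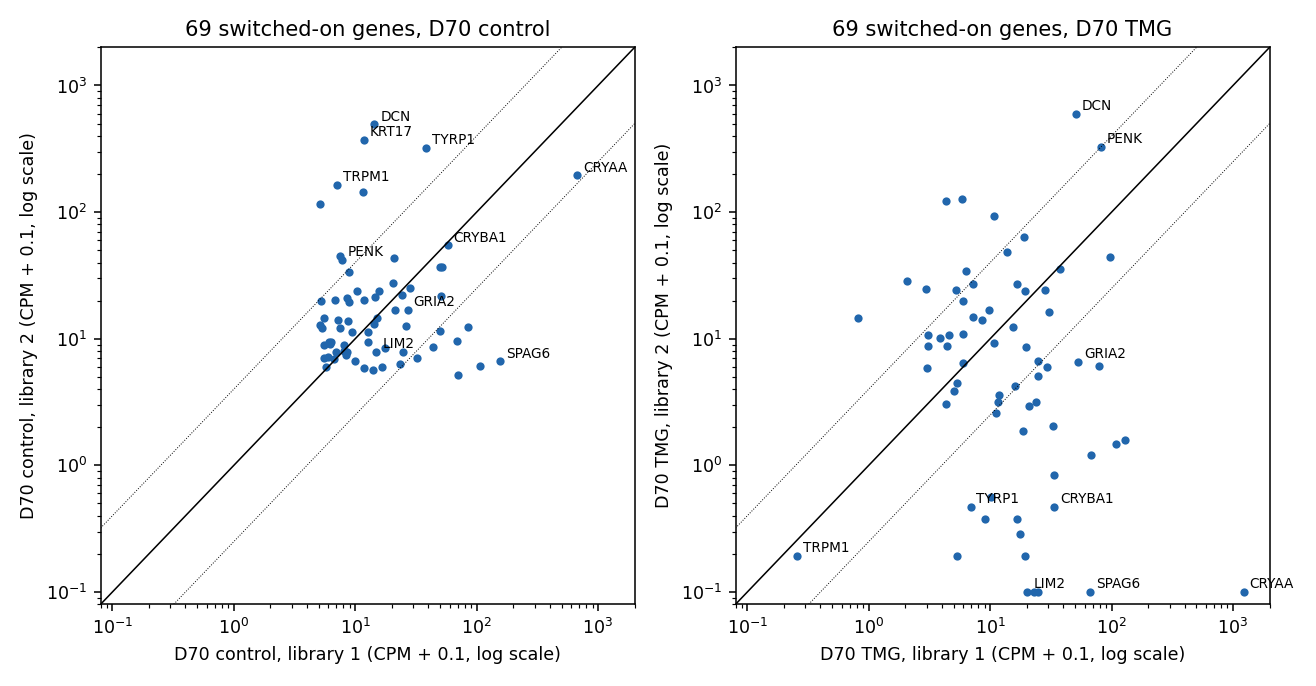
CPM + 0.1 of the 69 switched-on genes in library 1 (horizontal, log scale) and library 2 (vertical, log scale) of D70 control (left) and D70 TMG (right), with a line of equal levels and dotted lines at 4-fold. In the control pair 16 genes lie beyond 4-fold, 8 on each side.

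With a library left out, the condition that both replicates meet the threshold relaxes. Without D70 library 1 there were 237 genes switched on and without D70 library 2 there were 224, against 87 and 128 without D0 libraries 1 and 2. For genes switched off the counts were 83 and 76 without D0 libraries 1 and 2 and 79 and 111 without D70 libraries 1 and 2.

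The TMG-treated libraries had no part in choosing the switched genes, and the change from D0 to D70 was read in them. The fits took each gene's spread from all 16 libraries, the control libraries that chose the genes among them. The FDR calls with TMG are therefore not independent of that choice, while the order of the TMG libraries by CPM does not use that spread. All 57 switched-off genes were lower at D70 in TMG-treated cells by edgeR, where 14.1% of all tested genes were lower, and 56 by DESeq2, where 14.9% were. In both TMG libraries of D70 each was under both TMG libraries of D0, and the median log2 fold change was -8.31, or -7.06 with the 18 genes of no count at their bound, against 0.01 for all tested genes. POU5F1 had 869 and 832 CPM at D0 and 0.158 and 0.277 CPM at D70 with TMG (-11.90, FDR 1.5e-05), and NANOG had 121 and 113 CPM and then 0.316 and 0.647 CPM (-7.93, FDR 1.5e-05). The full condition, in all 4 TMG libraries, was met by 48 of the 57.

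Of the 69 switched-on genes, 63 were higher at D70 in TMG-treated cells by edgeR, where 14.9% of all tested genes were higher, and 67 by DESeq2, where 19.1% were. None was lower, and 60 were higher in both TMG libraries of D70 than in both of D0, with a median of 6.07. The 6 not called by edgeR were TYRP1, TRPM1, NR2E1, MGP, LCNL1 and ENSG00000205236. TRPM1 had 0.158 and 0.0925 CPM in the D70 TMG libraries (log2 fold change 0.10, FDR 0.98), both far under the D70 control libraries. NR2E1 had 5.21 and 0.0925 CPM with TMG at D70 (3.03, FDR 0.086), and TYRP1 had 6.80 and 0.370 CPM (3.75, FDR 0.061). For NR2E1 and TYRP1 the first D70 TMG library was well above the TMG libraries of D0, and the second stayed under 0.5 CPM.

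The condition of 5 CPM was met by 56 of the 69 in D70 TMG library 1 and by 39 in D70 TMG library 2, where 14 were under 0.5 CPM, and 20 met the full condition in all 4 TMG libraries. CRYAA was at 1222 CPM in D70 TMG library 1 and at 0 in D70 TMG library 2 (13.16, FDR 0.012), and CRYBA1 at 33.7 and 0.370 CPM (5.99, FDR 0.011). SAMD5, at 97.5 and 44 CPM, and SLC30A4, at 19.4 and 23.7 CPM, stayed well above 5 CPM in both. PAX6 itself was at 587 CPM in D70 TMG library 1 and 2.5 CPM in D70 TMG library 2 (4.93, FDR 0.037), and HOPX at 2.21 and 13 CPM (9.84, FDR 0.0090). PAX6 and HOPX were thus higher in different D70 TMG libraries. The D70 TMG libraries were further apart than the control pair, with a correlation of 0.875 across the tested genes and 1973 genes over 4-fold apart.

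Whether the change from D0 to D70 differed between TMG-treated and control cells was tested as an interaction over all genes. By edgeR 0 of 24249 genes (0%) differed, with 532 at an unadjusted p under 0.05, among them 4 of the switched-on and 2 of the switched-off genes. DESeq2 called 6, COL9A1, TRPM1, DSG3, BMP3, KCNS3 and ENSG00000264187, and 572 had an unadjusted p under 0.05. Of the 6 (0.0247%), 5 were higher with TMG (0.0206%) and 1 lower (0.00412%). The lower gene, TRPM1, was the only switched gene among them, with a DESeq2 log2 difference of -9.59 (FDR 0.032) and an edgeR FDR of 1.00. Its values were 7.01 and 163 CPM in the D70 control libraries against 0.158 and 0.0925 CPM with TMG, all 4 at or under 0.210 CPM at D0.

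The genes switched on and switched off also differed in kind. Of the 57 switched off, 29 were protein coding, 19 were long non-coding RNAs, 6 were pseudogenes and 3 had no annotation, and 44 had a name. Of the 69 switched on, 62 were protein coding, 4 were long non-coding RNAs and 3 were pseudogenes, and 65 had a name. Among all tested genes 66.7% were protein coding and 16.7% were long non-coding. The coding genes switched off had a median span of 9809 bases and those switched on 38278.5 bases, against 33127 bases for all tested coding genes. All 126 passed the filter on low counts, which a gene high at either end would do.

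Switched genes lay on most chromosomes, with 10 of the 69 switched on found on chromosome 7 and 7 on chromosome 9, which held 4.81% and 4.05% of all tested genes. Pairs within 100 kb of each other were few. UTF1 and VENTX lay 6296 bases apart on chromosome 10 and NANOG and NANOGP1 93429 bases apart on chromosome 12, all switched off. CRYBB3 and CRYBB2 lay 5204 bases apart on chromosome 22 and TRADD and HSF4 4771 bases apart on chromosome 16, all switched on. FOXD3 overlapped FOXD3-AS1, C16orf54 overlapped ENSG00000260719 and TMEM176A overlapped TMEM176B, so reads of those overlaps cannot be told apart without strand. In the promoter windows the median GC content was 59.0% for switched-off and 59.0% for switched-on genes against 63.7% for the genes tested and 58.7% for all windows, and the observed over expected ratio of CpG was 0.431 and 0.400 against 0.775 and 0.579.

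Some genes lay close to the thresholds. Just inside the 0.5 CPM limit at D0 were SLC6A20 and LCNL1, both at 0.494 CPM in their higher D0 library, and just outside were CAMK2A and HSD17B2, both at 0.556 CPM. Just inside the 5 CPM limit at D70 were BHLHE22 at 5.01 CPM and CCDC170 at 5.07 CPM in the lower library, and just outside P2RX6 at 4.99 CPM and RRAD at 4.83 CPM. For genes switched off, NANOG and FOXH1 at 0.483 CPM were just inside the D70 limit and ACOXL and LEFTY1 at 0.514 CPM just outside. LEFTY1, a Nodal inhibitor, had 7.79 and 34.6 CPM at D0 and 0.514 and 0.241 CPM at D70 (log2 fold change -5.75, FDR 5.2e-04), so a shift of a few reads would have counted it. Just inside the D0 limit were PNPLA5 at 5.04 CPM and NPSR1-AS1 at 5.07 CPM, and just outside FOXB1 at 4.88 CPM and C1orf94 at 4.69 CPM.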

How the data were processed

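RNA-seq was measured in 16 libraries, 2 for each of 8 groups of day and arm, grouped by title, with which column names agreed. The authors aligned reads with bowtie2 to hg19 and deposited estimated counts per gene from RSEM v1.2.12 (GRCh37.p13), as whole numbers, with no normalization. The members and lists were chosen with earlier results of these data known. Counts were scaled by TMM, filtered by filterByExpr (minimum count 10, minimum total 15) and tested by the quasi-likelihood F-test of edgeR 4.0.16 in R 4.3.3 over all 16 libraries, with 8 residual degrees of freedom and Benjamini-Hochberg FDR 5%. Switched genes were found by CPM over all 57736 genes, with no test. Named genes were the 3 markers, members of 23 lists (419 of 422 genes had a value) and of 3 lists added later (SCRT1, NEFL, PECAM1 and CCDC39 were not analysed here), the 12 most abundant named genes switched each way, the 2 genes on each side of each threshold and the 5 leading genes of each D70 library, some of which are not reported here. Folds use CPM over a group, with a floor of 3 counts where it has none and exact 95% intervals at 1 to 3 counts. Alternatives used DESeq2 1.42.0, size factors, no filter, a replicate block, fewer libraries, the treatment tag and each library left out. Python 3.11.15, numpy 2.4.6, pandas 2.3.3, scipy 1.17.1 and matplotlib 3.10.9 made tables and figures. The steps were tested on simulated data.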

Additional observations from a re-analysis of the deposited data

How the results depend on the processing

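Across all alternatives, 39 counts of all genes came within 1.5 times the reported count and 18 did not, and the log2 fold changes of the genes run with alternatives, which are not all genes named, kept their sign in each, with 214 on the same side of FDR 5%, 22 losing it and 6 gaining it. The 4 control libraries of D0 and D70 alone, with 2 residual degrees of freedom, called 3169 genes (1564 higher, 1605 lower), fewer than over 16 libraries. Size factors in place of TMM called 7172 and shifted the median log2 fold change from 0.03 to 0.04, and no filter on low counts called 5691 of 43143 tested. With replicate number as a block the fit called 7392 genes and 0 in the interaction, where DESeq2 called 6. Replicate numbers did not pair the days: the difference between replicates at D0 and D70 correlated at -0.0356 across genes. Within D70 the arms were alike by number in genes of a single library. Of the 79 on only in D70 control library 2, 56 were at 5 CPM or more in D70 TMG library 2 and 2 in library 1. Of the 31 on only in D70 control library 1, 11 were so in D70 TMG library 1 and 0 in library 2. The main fit did not pair the libraries.

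Leaving out each of the 4 libraries gave 3678 to 6183 genes changed, 1526 to 3416 higher and 2152 to 2767 lower, and with fewer conditions to meet 87 to 237 switched on and 76 to 111 switched off. Arms read from the treatment tag called 10114 genes (5179 higher, 4935 lower), the most of any alternative. They gave 194 genes switched on, of which 43 were among the 69, and 82 switched off, of which 53 were among the 57. The larger count does not show which label is right. Asking the same of the TMG libraries left 20 switched on and 48 switched off. Limits of 0.25 and 2.5 CPM gave 95 switched on (32 shared) and 73 switched off (38 shared), those of 1 and 10 CPM gave 62 (25 shared) and 48 (36 shared), and library totals with no factor gave 60 (59 shared) and 58 (55 shared). Other causes were not tested. Over the lists, 424 counts stayed within 1.5 times and 148 did not. Counts over lists, and list sums and genes of a single library under other scalings, were alternatives chosen after seeing the data.

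With 2 libraries a group, unsorted cultures and 1 cell line, the spread of day 70 cultures is poorly known, and for 2 of the 4 libraries the treatment tag names the other arm than the title, the description and the column name of the counts, which were followed. At 6.21 to 8.09 counts for 0.5 CPM, a few reads decide which genes near the limits are counted.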
